A study of Mus musculus with 2 samples.

Results

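Club cells are the secretory cells of the mouse bronchiole. They make secretoglobins, small proteins released onto the airway surface, and carry cytochrome P450, flavin oxygenase and glutathione transferase enzymes that change inhaled chemicals. They also act as progenitors of the bronchiolar lining, where goblet cells make the gel-forming mucins and ciliated cells move the mucus. Here they were taken from single-cell RNA counts of sorted mouse lung cells by a rule applied to each library. A kept cell had at least 500 genes, at least 1000 unique molecular identifiers (UMIs) and at most 20% mitochondrial UMIs. The club cells were selected on 3 measured values: a club cell had Scgb1a1 at 3% of its UMIs or more, at least 2 UMIs of Cyp2f2, and fewer than 4 of 6 cilium genes (Tmem212, Ccdc153, Cfap299, Tppp3, Ccdc39 and Spag17). The rule found 238 of 26113 kept cells, 189 of 12027 at E18.5 and 49 of 14086 at postnatal day 10 (P10).

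Each time point had 1 library, so no replicate stands behind a difference between them and none was tested; time point, library and animals cannot be told apart. Both libraries came from mice with a tamoxifen-inducible Cre recombinase at Cdh16 (Cdh16CreERT2) and the tdTomato reporter, which the sample labels give as flox/flox and the series design as flox/wt. Tamoxifen reached the pregnant dams from embryonic day 12.5, injected at 0.1 mg per kg body weight or fed at 0.4 g per kg food, and which route served which library is not stated. Red cells were sorted from the CD326 (Epcam) gate, so the cells are those marked through Cdh16 and not a sample of the airway. The labels call both samples lung alveolar epithelial cells from embryonic lung, also at P10. The club cells went against that cell type label: the 3 of 3 club markers that the rule did not use (Scgb3a2, Hp and Cbr2) were at least 2-fold above the other cells in both libraries. E16.5 was not analysed here.

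The club cells were 1.57% of kept cells at E18.5 (exact binomial interval 1.36 to 1.81%) and 0.348% at P10 (0.257 to 0.460%). All intervals are 95% intervals and cover counting error only. After each cell was thinned to 3000 UMIs, 135 of 10695 cells (1.26%) and 53 of 13263 cells (0.400%) met the rule. The libraries shared 59 barcodes, and no club cell barcode was a club cell in both. The median club cell had 12571 UMIs and 3172 genes at E18.5, and 34897 UMIs and 5498 genes at P10, while the other cells had medians of 8865 and 10243 UMIs. Summed over club cells, these counts came to 2682241 UMIs at E18.5 and 1674267 at P10. No doublet caller was run, and counts of club cells with genes of other cell types are given beside the results.

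Scgb1a1 encodes the main club cell secretoglobin and chose the cells, so its values are a description. In E18.5 club cells it made up 3.01 to 36.9% of UMIs, with a median of 12.9%, and in P10 club cells 3.16 to 54.5%, with a median of 24.9%. The 3 club cells nearest above the limit had 3.01, 3.12 and 3.17% at E18.5 and 3.16, 4.33 and 4.73% at P10. The 3 cells nearest below it had 2.94, 2.86 and 2.82%, and 2.62, 2.42 and 2.04%. P10 club cells spread widely, and 16 of 49 gave 30% or more of their UMIs to this 1 gene, against 6 of 189 at E18.5. Leukocyte cells (at least 2 UMIs of Ptprc and none of Epcam), which should hold Scgb1a1 only as free RNA, had medians of 0.0566% and 0.118%. Of all kept UMIs of Scgb1a1, club cells held 53.9% at E18.5 and 46.7% at P10.

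The other club markers set the cells apart without having chosen them, apart from Cyp2f2. Levels below are UMIs per 1000000 UMIs of the summed cells (CPM). Scgb3a2, a second secretoglobin, stood at 18282 CPM in E18.5 club cells and 276 CPM in the other cells, 66.4-fold higher (exact conditional interval 65.5 to 67.3). At P10 it stood at 5943 and 53.5 CPM, 111-fold higher (108 to 114). Single E18.5 club cells ranged from 614 to 149537 CPM with a median of 14859 CPM, and all 189 had a UMI. At P10 they ranged from 0 to 32808 CPM with a median of 2775 CPM, and 4 of 49 had no UMI. Cbr2, a carbonyl reductase, stood at 3979 and 5529 CPM in club cells, 13.7-fold and 2.81-fold above the other cells. Cyp2f2, the P450 that activates naphthalene in club cells, stood at 798 and 1803 CPM.

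Hp, which encodes the haemoglobin-binding protein haptoglobin, had like levels in club cells of both libraries and a smaller contrast with the other cells at P10. Its level was 3134 CPM in E18.5 club cells, with single cells from 114 to 9591 CPM, and 3141 CPM in P10 club cells, with single cells from 481 to 9886 CPM. The ratio was 1.00 (0.968 to 1.04), and the cells of both libraries overlapped over nearly the whole range. Against the other cells it was 27.4-fold higher at E18.5 and 4.74-fold higher at P10. The level outside club cells differed, with AT2 cells (surfactant-making alveolar cells, here cells with Sftpc at 3% or more, at least 2 Lamp3 UMIs and Scgb1a1 below 3%) at 73.7 CPM in the E18.5 library and 677 CPM in the P10 library. Leukocyte cells had 154 and 467 CPM.

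**Figure D1:**
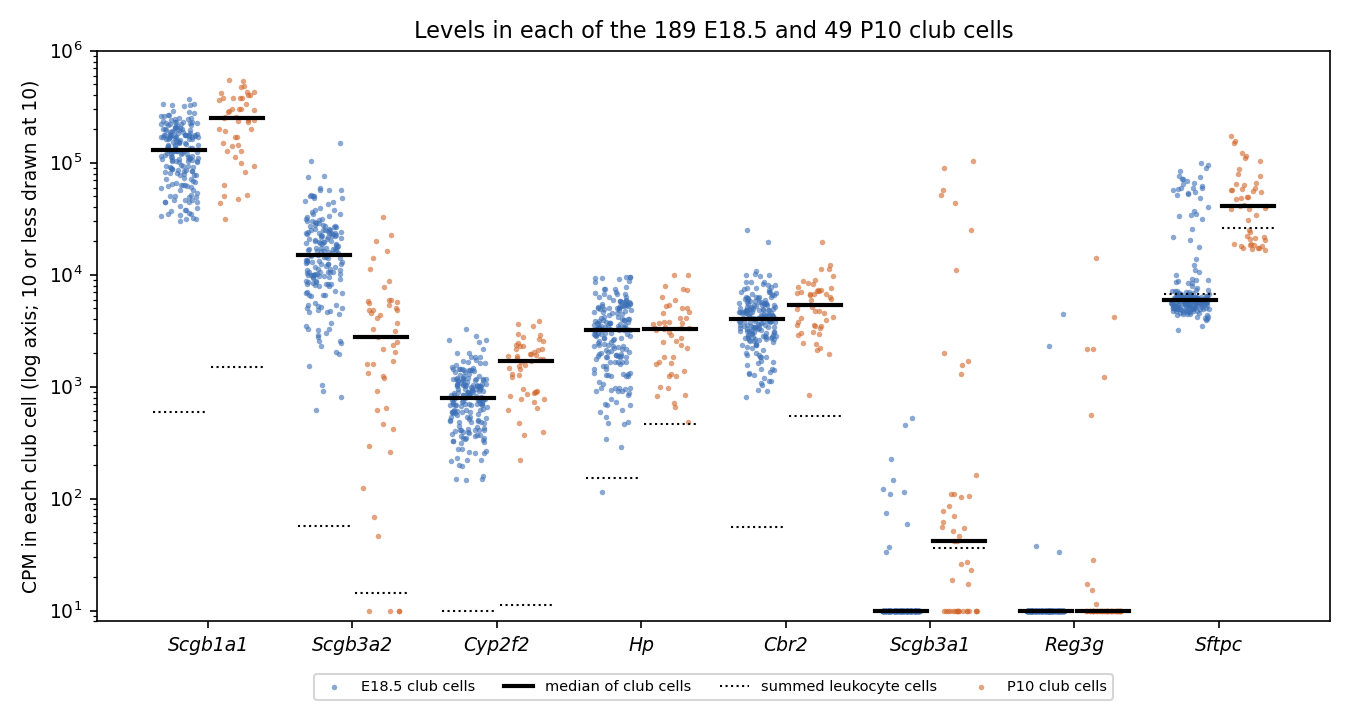
CPM (log axis) of 8 genes in each club cell, 189 at E18.5 (blue) and 49 at P10 (orange), with 10 CPM or less drawn at 10. Thick lines are medians of club cells and dotted lines the summed leukocyte cells; Hp medians lie side by side, Scgb3a2 lies lower at P10, and Scgb3a1 and Reg3g are high in a few P10 cells only, besides 2 E18.5 cells high in Reg3g.

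Some club cells carried RNA of other cell types. Sftpc, the surfactant gene of AT2 cells, was at 3% of UMIs or more in 28 of 189 club cells at E18.5 and 31 of 49 at P10. Its median was 0.595% and 4.15% in club cells, 0.607% and 1.93% in leukocyte cells, and 10.5% and 14.5% in AT2 cells. The summed level of 9 AT2 markers was 24607 and 68529 CPM in club cells, 14211 and 37024 CPM in leukocyte cells and 113157 and 184290 CPM in AT2 cells. At least 2 UMIs of Ptprc were found in 3 and 7 club cells, and at least 2 of Ptprc, Pecam1 or Col1a2 in 13 and 21. Basal cell genes were nearly absent, with Trp63, Krt5, Krt14 and Ngfr at 0 in both libraries. Among E18.5 club cells the goblet genes Muc5ac, Tff2 and Gp2 were at 0. Of the 6 cilium genes, 93, 79, 12 and 5 club cells at E18.5 had 0, 1, 2 and 3, and at P10 these numbers were 20, 16, 8 and 5.

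The next comparison asks which genes set club cells apart from the other cells of their library. A gene was measured at a mean of 10 CPM or more over both sums, and counted as higher or lower at 2-fold or more. At E18.5, 247 of 8043 measured genes were higher in club cells (3.07%) and 940 lower (11.7%). At P10, 254 of 8050 were higher (3.16%) and 808 lower (10.0%). The secretoglobins take a large share of club cell UMIs, and the median gene lay at a log2 ratio of -0.31 at E18.5 and -0.40 at P10. With secretoglobins left out of the totals, these medians were -0.08 and 0.04, and the splits became 365 higher and 658 lower, and 467 higher and 241 lower.

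The 20 genes that stood out most in both libraries include a group of enzymes. Gsta3, a glutathione transferase, was at 163 CPM in E18.5 club cells and 11.5 CPM in the other cells, 14.2-fold higher (12.7 to 15.8), and at P10 at 290 and 23.3 CPM, 12.4-fold higher (11.3 to 13.7). A Gsta3 UMI was found in 152 of 189 and in 49 of 49 club cells. Gsta4 was 4.97-fold and 4.45-fold higher, and Gstm2 4.21-fold and 9.04-fold. The gene lists used here were chosen with earlier results of these data known. A listed gene can also be measured through its level in club cells alone. Of all measured genes, 3.07% were higher in club cells at E18.5 and 3.16% at P10. Of P450 and flavin oxygenase genes, 6 of 7 measured were higher at E18.5 (median log2 ratio 2.98) and 6 of 8 at P10 (1.75). These counts and medians include Cyp2f2, which chose the cells, so its part in them is a description. Of aldehyde, carbonyl and conjugation enzymes, 12 of 14 were higher and 1 lower (Akr1c14) at E18.5, and 13 of 16 higher at P10. Fmo2, a flavin oxygenase, was 16.9-fold and 3.51-fold higher. Of antioxidant genes, 2 of 14 (Gpx2 and Cbr3) and 4 of 15 (Prdx6, Gpx2, Slc7a11 and Cbr3) were higher, and 0 lower. This was a smaller part than in the enzyme lists, but above the share of all measured genes.

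Secreted and transport proteins made up another group. Lypd2, a small secreted protein of the Ly6 family, was 26.6-fold (23.9 to 29.6) and 73.4-fold (66.6 to 80.8) higher. Cp, the copper-carrying ferroxidase ceruloplasmin, was 16.4-fold and 12.1-fold higher. Rbp4, which carries retinol, was 35.5-fold higher at E18.5 (326 against 9.19 CPM) and 9.30-fold at P10 (61.5 against 6.61 CPM). Pglyrp1, which binds bacterial cell walls, was 5.46-fold and 5.85-fold higher than the other cells. At P10, however, its 142 CPM lay below the 240 CPM of leukocyte cells.

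Among genes of the membrane and signalling, Cldn10, a tight junction protein, was 9.28-fold and 28.5-fold higher, and Kcnk2, a potassium channel, 4.33-fold and 6.00-fold. Bmpr1b, a receptor for bone morphogenetic proteins, was 9.85-fold and 13.4-fold higher, and Gna14, a G protein subunit, 8.64-fold and 9.15-fold. Plpp3, a lipid phosphatase, was 6.67-fold and 4.39-fold higher. The nuclear protein Pir was 10.4-fold and 18.2-fold higher, the mitochondrial protein Cisd1 4.46-fold and 3.94-fold, and Rassf9 4.71-fold and 3.94-fold. In each of these genes club cells also exceeded AT2 cells by more than 2-fold in both libraries.

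**Figure D2:**
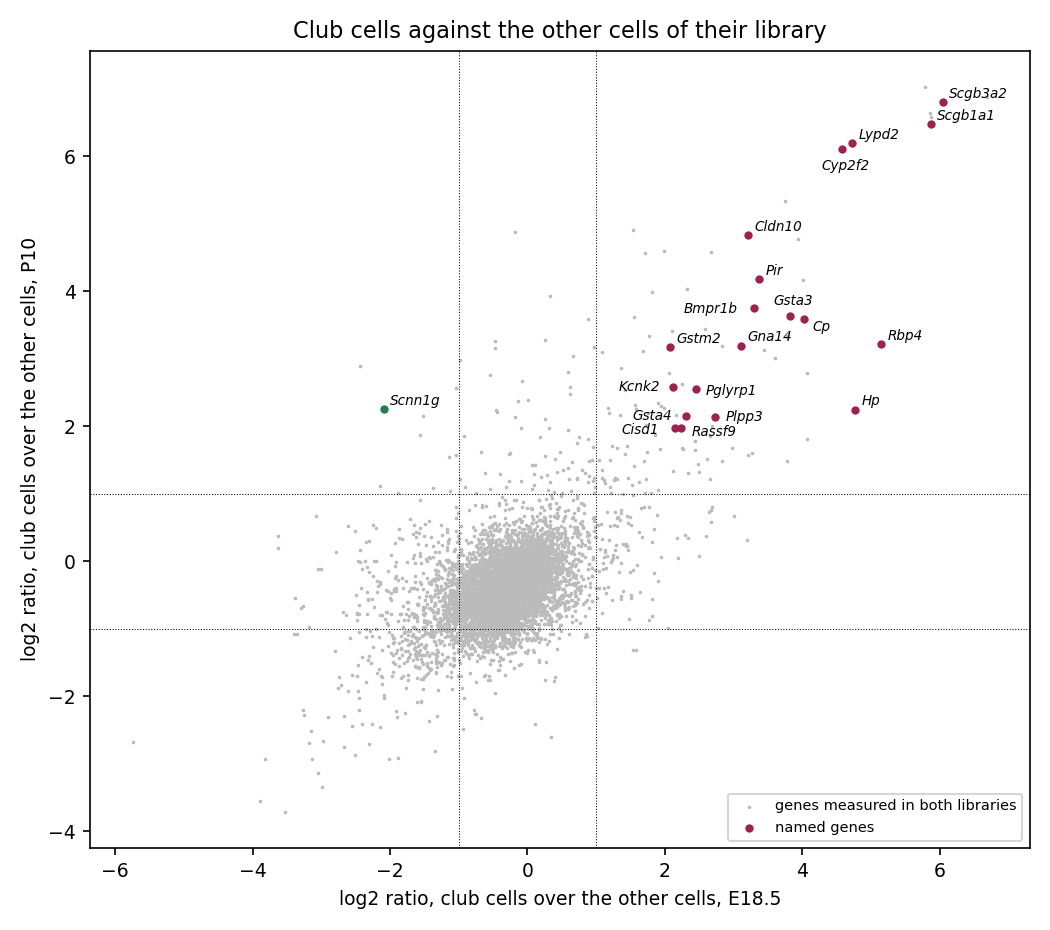
Log2 ratio of club cells to the other cells at E18.5 (horizontal) and P10 (vertical) for genes measured in both libraries, with named genes in red and Scnn1g in green. Dotted lines mark 2-fold; Scgb3a2 and Scgb1a1 lie at the upper right, and Scnn1g lies below the other cells at E18.5 and above them at P10.

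Ciliated cells (at least 4 of the 6 cilium genes), taken as a sum, also held many of these genes. Against them, 14 of the 20 named genes were more than 2-fold higher in club cells at E18.5 and 5 of 20 at P10. Cyp2f2 was at 283 and 1107 CPM in ciliated cells, and Scgb3a2 at 3499 and 3140 CPM. The limits on Scgb1a1 and Cyp2f2 were also met by 87 of the 462 ciliated cells at E18.5 and 14 of the 85 at P10. Of these, 75 and 11 had all 6 cilium genes. The ciliated sums include these cells, while the median ciliated cell had Scgb1a1 at 0.0900% and 0.191% of UMIs. Leukocyte medians were 0.0566% and 0.118%. The part of the cells that met both limits in the ciliated sums was not tested. Rassf9 was lower in club than in ciliated cells in both libraries (log2 ratio -0.42 and -0.23). Sox2, the transcription factor of the airway lineage, was 5.06-fold and 35.0-fold above the other cells. It stood at 14.5 and 26.3 CPM in club cells and at 42.2 and 36.8 CPM in ciliated cells. Its mean over club and other cells at E18.5 was 8.71 CPM, under the limit of 10 CPM, so the lists below count it at P10 only.

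The counts for transcription factors and the Notch pathway stand beside 3.07% higher and 11.7% lower of all measured genes at E18.5, and 3.16% and 10.0% at P10. Of 28 measured airway lineage transcription factors, 2 were higher (Ehf and Mycl) and 7 lower at E18.5, and of 26 at P10, 1 was higher (Sox2) and 4 lower. Nkx2-1, shared by the epithelia of the lung, was at 202 CPM in club cells and 232 CPM in the other cells at E18.5. Foxj1, the ciliated cell factor, was at 6.34 and 0.597 CPM in club cells against 239 and 117 CPM in ciliated cells. Of the Notch pathway, which steers airway cells toward the secretory fate, Notch3 and its target Nrarp were higher at E18.5 among 9 measured genes, and 0 of 7 at P10.

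Kdr, the VEGF receptor best known from endothelium, was 7.16-fold higher in club cells at E18.5 and 2.79-fold at P10. A Kdr UMI was found in 93 of 189 club cells (49.2%) and 23 of 49 (46.9%), against 2.67% and 3.69% of leukocyte cells, whose median depths were 6762 and 4333 UMIs. After thinning these shares were 19.5% and 10.4%, against 0.370% and 2.50%. The 4 other endothelial markers were lower in club cells than in the other cells at E18.5, and 3 of 4 at P10. Upk3a, known from club cells near neuroepithelial bodies, was at 72.7 CPM in E18.5 club cells, with a UMI in 55 of 189, and at 4.78 CPM at P10.

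The last comparison sets the 49 club cells of P10 against the 189 of E18.5. Of 7673 measured genes, 889 were higher at P10 (11.6%) and 1108 lower (14.4%), with a median log2 ratio of -0.07. Without secretoglobins in the totals the split was 1389 higher and 761 lower, with a median of 0.14. Much of the difference was shared with AT2 cells: after the log2 ratio of AT2 cells was taken off, 395 genes were higher and 371 lower. Gene span moved with the ratio, since the shortest 20% of genes (8.81 kb or less, introns included) had a median of -0.58 and the longest 20% (89.1 kb or more) one of 0.47. The named genes had median spans of 10.8 kb (higher at P10) and 10.5 kb (higher at E18.5).

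Scgb3a2 was 3.08-fold lower at P10 (3.01 to 3.14), 5.11-fold lower without the 6 P10 cells high in Muc5b that are described below, and 5.34-fold lower with no cilium gene allowed. The difference fell to 1.98-fold against genes of like length and turned to a log2 ratio of 0.55 relative to AT2 cells, in which Scgb3a2 was lower still at P10. Scgb1a1, at 130095 and 249178 CPM, was 1.92-fold higher at P10, a description because the rule used it. Scgb3a1, another family member known from mucus-producing airway cells, had 9.32 CPM in E18.5 and 11176 CPM in P10 club cells, 1199-fold higher (812 to 1853). No E18.5 club cell had 10 UMIs of it, and 11 of 49 P10 club cells did. The other P10 cells were near background: the median club cell held 42.2 CPM, and the summed leukocyte cells 36.5 CPM. A Scgb3a1 UMI was seen in 63.3% of P10 club cells and 16.8% of leukocyte cells, or 29.2% and 10.8% after thinning.

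Of the 15 genes named for the largest ratios at P10, 7 encode secreted proteins of airway mucus and defence (Scgb3a1, Bpifb1, Tff2, Bpifa1, Muc5b, Clca1 and Reg3g). Another 4 are MHC class II genes, and the other 4 are Ly6a, Tmem132d, Cyp4b1 and Acoxl. Muc5b, the main gel-forming mucin of the mouse airway, had 0.746 CPM (2 UMIs) in E18.5 club cells and 245 CPM (410 UMIs) at P10, 328-fold higher (90.3 to 2721). Bpifa1, Bpifb1, Tff2 and Clca1 had no UMI in E18.5 club cells, where 3 counts over the summed cells would be 1.12 CPM. At P10, Bpifb1 was at 824 CPM, at least 736-fold higher. Bpifa1, like it a secreted lipid-binding defence protein, was at 528 CPM, at least 472-fold higher. The trefoil peptide gene Tff2 was at 588 CPM, at least 525-fold higher, and Clca1, a secreted mucus protein, at 158 CPM, at least 141-fold higher. Reg3g, an antibacterial lectin, was at 36.2 and 733 CPM, 20.3-fold higher (16.5 to 25.2).

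These genes were concentrated in a few cells. After the values were seen, the P10 club cells with at least 10 UMIs of Muc5b were set apart, 6 of 49. They held 96.6% of the Muc5b UMIs of P10 club cells, a description because Muc5b chose them. Of the genes that did not choose them, they held 99.4% of Bpifa1, 99.7% of Reg3g, 99.2% of Clca1, 98.5% of Agr2, 98.3% of Tff2, 96.3% of Scgb3a1 and 92.2% of Bpifb1. Their median depth was 45790 UMIs, against 30597 in the other 43. Across the 6, Scgb3a1 ranged from 25059 to 103938 CPM, Bpifa1 from 482 to 8388 CPM, and Reg3g from 556 to 14173 CPM. Agr2 was uneven, at 0 CPM in the lowest of the 6 and 2209 CPM in the highest. These cells also held 50.7% of Scgb3a2 and 63.9% of Retnla, a secreted resistin-like protein. Of Cyp2f2, which had nearly the same CPM in the 6 cells and the other 43, they held 18.1%.

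Of the club markers that the rule did not use, Hp was at 1120 CPM in the same 6 cells and 3585 CPM in the other 43, and Cbr2 at 3934 and 5880 CPM. Scgb1a1 and Cyp2f2, which every club cell carries by the rule, were at 168198 and 266982 CPM and at 1806 and 1802 CPM. Wfdc2, a secreted protease-inhibitor-like protein, was at 7510 and 4138 CPM. Foxa3, a goblet cell factor, had a UMI in 1 of the 49 cells and Spdef in 8, so their levels could not be compared at this depth. Without the 6 cells Reg3g was lower at P10 (log2 ratio -3.63 in place of 4.34). At E18.5 a Reg3g UMI was found in 4 of 189 club cells, of which 2 had at least 10. Of the 14 genes on the mucin and goblet list 7 were measured, and 4 of these, Muc5b, Tff2, Clca1 and Agr2, lay under 10 CPM at E18.5 and were measured through P10 alone. Of the 889 genes higher at P10, 793 stayed so, and of the 1108 lower, 1012.

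**Figure D3:**
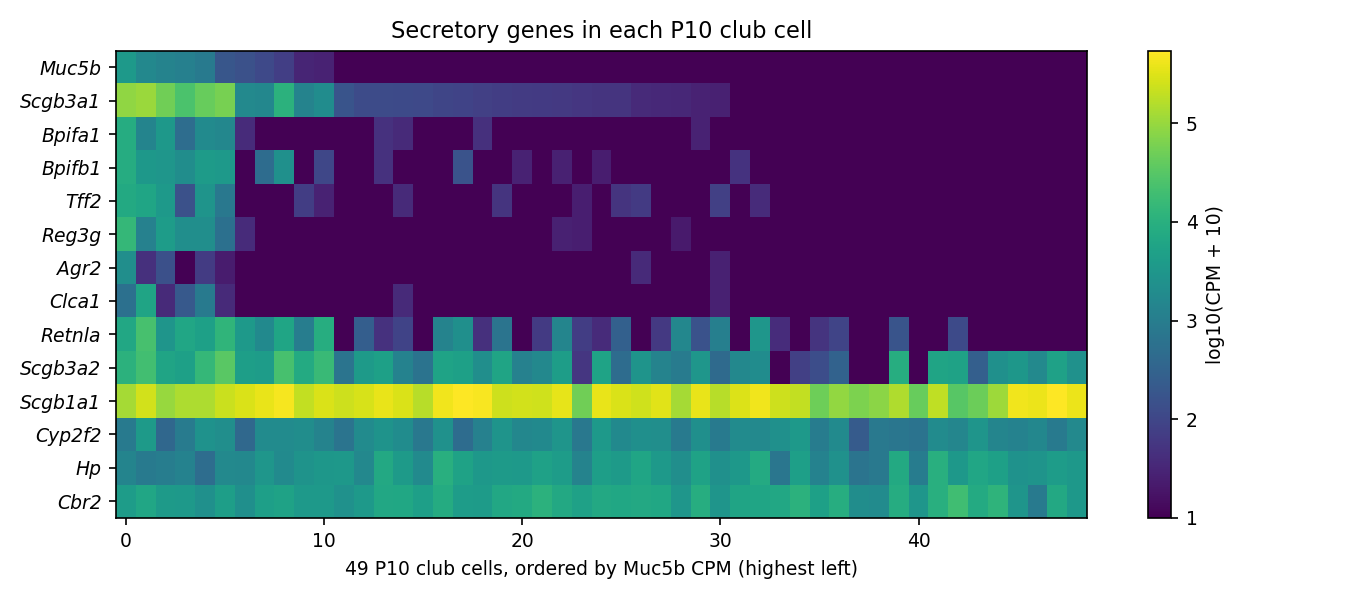
Level of 14 genes, as log10(CPM + 10) by colour, in each of the 49 P10 club cells, ordered by Muc5b from the left. The leftmost 6 cells hold nearly all Bpifa1, Tff2 and Reg3g, while Hp and Cbr2 are present across the row, as are Scgb1a1 and Cyp2f2 by the rule that chose the cells.

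Promoter sequence is shown for genes that moved together in these 6 cells and for one that did not. RefSeq promoter entries (GRCm38.p6) were looked up for Scgb1a1, Scgb3a1, Cyp2f2, Cbr2 and Bpifa1, and 4 of 5 matched. The 250 bases before the start of Scgb3a1 (chr11:49663345-49663594, plus strand), of Bpifa1 (chr2:154142630-154142879, plus strand) and of Cyp2f2 (chr7:27119705-27119954, plus strand) read as follows, with motif matches in capitals.
Scgb3a1: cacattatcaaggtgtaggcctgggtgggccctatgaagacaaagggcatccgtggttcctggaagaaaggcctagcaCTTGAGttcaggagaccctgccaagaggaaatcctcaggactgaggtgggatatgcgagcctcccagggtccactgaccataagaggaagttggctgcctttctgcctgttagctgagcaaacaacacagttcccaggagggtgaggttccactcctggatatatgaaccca
Bpifa1: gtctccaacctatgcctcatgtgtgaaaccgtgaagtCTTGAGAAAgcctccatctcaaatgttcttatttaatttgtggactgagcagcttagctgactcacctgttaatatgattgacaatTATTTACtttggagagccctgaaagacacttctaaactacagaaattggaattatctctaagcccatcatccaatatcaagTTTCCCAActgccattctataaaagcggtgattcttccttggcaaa
Cyp2f2: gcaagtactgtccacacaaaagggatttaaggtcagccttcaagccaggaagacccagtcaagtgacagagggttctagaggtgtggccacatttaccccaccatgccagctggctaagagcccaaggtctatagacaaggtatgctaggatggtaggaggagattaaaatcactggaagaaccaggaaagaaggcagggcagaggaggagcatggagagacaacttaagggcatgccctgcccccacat

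The motifs searched, on both strands, were a forkhead core (TNTTTAC), an NKX2-1 core (CTCAAG) and C/EBP half-sites (TTNNGNAA). Of 32851 promoters of the same length, 10.9%, 13.3% and 36.8% held them. Scgb3a1 held 1 match, the NKX2-1 core on the minus strand. Bpifa1 held 4, namely a forkhead core, an NKX2-1 core on the minus strand that overlaps a C/EBP match, and a second C/EBP match on the minus strand. Cyp2f2 and Cbr2 held 0. A match is a run of letters in this window and was not tested as a binding site.

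Of 18 measured secreted defence genes, 14 were higher at P10 and 0 lower (median log2 ratio 1.72), beside 11.6% higher and 14.4% lower of all measured genes. Of the 18, 3 lay under 10 CPM at E18.5 and were measured through P10 alone. The 14 include Lyz2 and Sftpa1, which are also on the list of 9 AT2 markers. Of those 9, 6 were higher in P10 club cells and 0 lower. The part of AT2 RNA in the count was not tested. Without the 6 Muc5b cells 11 of the 18 were higher and 1 lower, and relative to AT2 cells 6 were higher and 4 lower. Lcn2, which withholds iron from bacteria, was 3.28-fold higher at P10, at 475 and 1559 CPM, and was also higher in AT2 cells, by 2.97 on the log2 scale against 1.72 in club cells. Pigr, the receptor that carries antibodies across the epithelium, was at 1.12 CPM (3 UMIs) and 88.4 CPM, 79.0-fold higher (26.5 to 388), with 59.5% of its P10 UMIs in the 6 cells.

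MHC class II genes present antigen. Of 7 listed, 6 were measured and were higher at P10, beside 11.6% of all measured genes. Of the 6, 5 lay under 10 CPM at E18.5 and were measured through P10 alone. H2-Aa was at 2.24 and 259 CPM, 116-fold higher (52.7 to 317). Of its 433 UMIs in P10 club cells, 45.7% lay in 2 cells, and without these it was at 147 CPM, 65.6-fold higher. With no cilium gene allowed its log2 ratio was 4.15, and without cells with Ptprc, Pecam1 or Col1a2 it was 5.14, in place of 6.85. Cd74 was at 22.7 and 730 CPM, 32.1-fold higher. At P10 these levels lay below those of leukocyte cells, 699 CPM for H2-Aa and 2146 CPM for Cd74, and near those of AT2 cells, 267 and 1276 CPM. Relative to AT2 cells, 3 of the 6 were higher. The P10 club cells also had 6020 CPM of 7 summed leukocyte markers, against 1155 CPM at E18.5, 12560 CPM in P10 leukocyte cells and 15922 CPM in P10 AT2 cells. Of the sum in P10 club cells, 5721 CPM was Lyz2, which is also on the AT2 list. The 6 leukocyte markers other than Lyz2 summed to 96.2 CPM in E18.5 and 300 CPM in P10 club cells, against 4506 and 7292 CPM in leukocyte cells and 199 and 182 CPM in AT2 cells. The part of leukocyte RNA in the MHC class II levels was not tested. Of 15 named genes higher at P10, 8 were at least 2-fold above leukocyte cells, and the other 7 were Acoxl, Tmem132d, Ly6a, H2-Ab1, H2-Aa, H2-Eb1 and Cd74. Against the summed ciliated cells of P10, 5 of the 15 were at least 2-fold above. The other 10 were these 7 with Bpifb1, Clca1 and Cyp4b1.

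Enzymes of chemical metabolism differed gene by gene. Cyp4b1, a P450 of the lung, was at 6.34 and 108 CPM, 17.0-fold higher at P10 (10.3 to 29.8). Aldh1a1, a retinaldehyde dehydrogenase, was 7.82-fold higher (6.77 to 9.08), with 83.1 and 650 CPM. The sulfotransferase Sult1d1 was at 0.373 CPM (1 UMI) and 50.2 CPM, 135-fold higher (23.5 to 5378). In all, 4 of 10 P450 and flavin oxygenase genes were higher and 2 lower, and 4 of 18 conjugation enzymes higher and 3 lower, beside 11.6% higher and 14.4% lower of all measured genes. The 4 higher P450 and flavin oxygenase genes include Cyp2f2, which the rule used. Against genes of like length, 8 of the 18 conjugation enzymes were higher and 3 lower. Fmo2, with 464 and 492 CPM, differed by less than 2-fold.

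**Figure D4:**
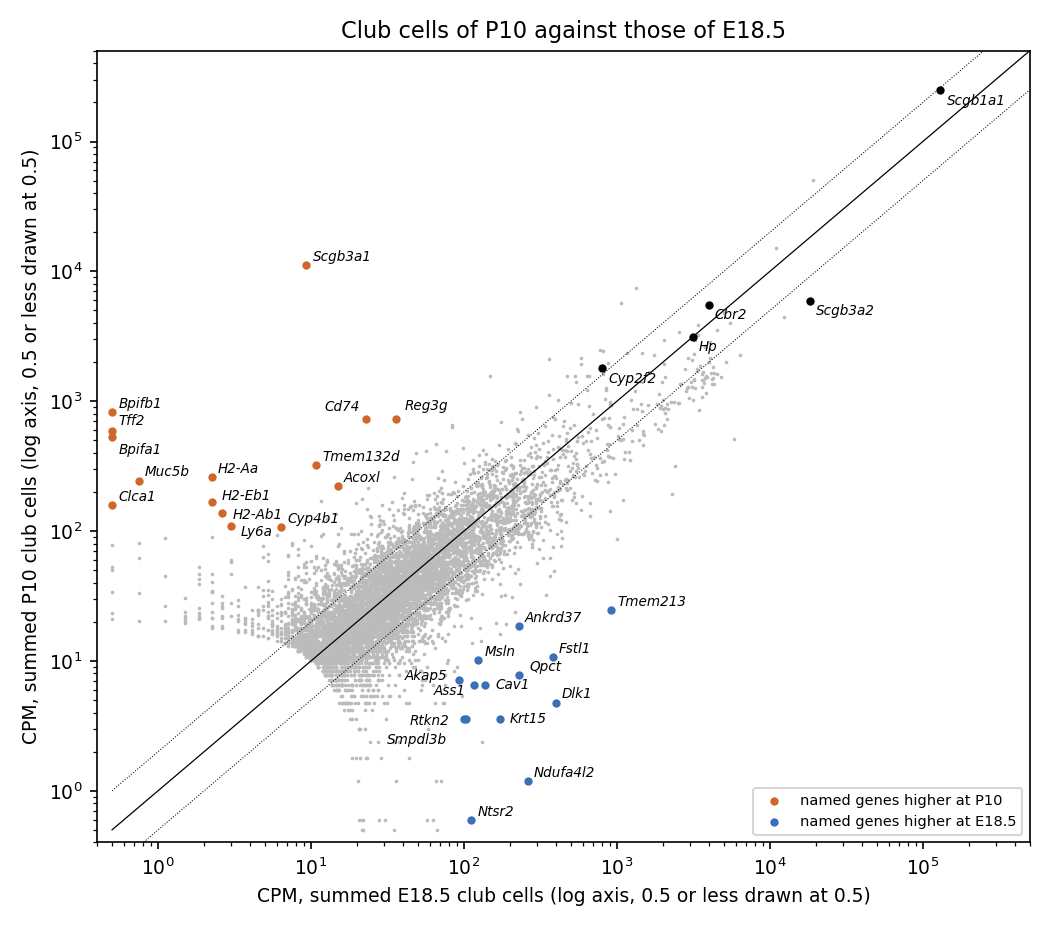
CPM of each measured gene in summed club cells of E18.5 (horizontal) and P10 (vertical), both log axes, with 0.5 or less drawn at 0.5 and dotted lines at 2-fold. Named genes of each direction are coloured; Scgb3a1 and Bpifb1 lie far above the diagonal, and Hp lies on it.

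The genes that stood out most at E18.5 were mixed in kind. Ndufa4l2, a mitochondrial protein induced by low oxygen, had 261 CPM at the earlier time point and 1.19 CPM (2 UMIs) at P10, 219-fold higher at E18.5 (60.3 to 1810). Ntsr2, a neurotensin receptor, was at 111 CPM, with a UMI in 97 of 189 club cells, and at 0.597 CPM (1 UMI) at P10, 186-fold higher (33.1 to 7372). At E18.5 Ntsr2 was also 54.1-fold above the other cells. Krt15, a keratin of airway progenitors, was 47.6-fold higher (21.7 to 131) and 17.2-fold above the other E18.5 cells. Smpdl3b, a membrane lipid phosphodiesterase, was 28.6-fold higher. Cldn10, though not among the 15, was at 2294 and 193 CPM, 11.9-fold higher, and Rbp4 5.30-fold.

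In the E18.5 library, 8 of the 15 were less than 2-fold above the other cells. Dlk1, an imprinted growth regulator, had 397 CPM in club cells and 2418 CPM in AT2 cells, and its difference between time points was larger in AT2 cells. Tmem213 and Fstl1, at 913 and 381 CPM, were at 793 and 332 CPM in AT2 cells. Rtkn2, Cav1, Akap5 and Msln, all but Msln on the list of AT1 markers (the thin gas-exchange cells), lay below leukocyte cells. Ass1, an enzyme of arginine synthesis, was also under 2-fold above them. Of the 15, 10 were at least 2-fold above leukocyte cells at E18.5, and 7 above the summed ciliated cells. The 9 summed AT1 markers were at 3343 CPM in E18.5 club cells, 2889 CPM in leukocyte cells and 919 CPM in P10 club cells. Their part in these results was not tested.

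The list counts in this paragraph stand beside 11.6% higher and 14.4% lower of all measured genes. Hypoxia and glycolysis genes were lower at P10, 14 of 16 measured and 0 higher, with a median log2 ratio of -1.90. Ldha, lactate dehydrogenase, was 4.02-fold lower (664 and 165 CPM) and Pgk1, phosphoglycerate kinase, 4.56-fold lower. Imprinted and oncofetal genes were lower in 9 of 11 cases (median -2.52), among them Igf2, an imprinted growth factor, at 35.8 and 1.19 CPM. Relative to AT2 cells only 4 of the 16 and 2 of the 11 were lower, with 1 higher in each list. Keratins and other genes of epithelial state were lower in 8 of 12 cases and higher in 3, with a median of -1.16, which turned to 0.71 relative to AT2 cells. Of growth signals and receptors, 9 of 18 were lower and 0 higher, though 4 were lower when each cell had equal weight, and relative to AT2 cells 1 was lower and 4 higher. Of the imprinted genes, Igf2, Dlk1 and Mirg lay under 10 CPM at P10 and were measured through E18.5 alone. So were Erbb2, Bmp4 and Fzd2 of the growth list, Egln3 of the hypoxia list and Krt15 of the keratin list. Ly6a of the keratin list was measured through P10 alone.

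**Figure D5:**
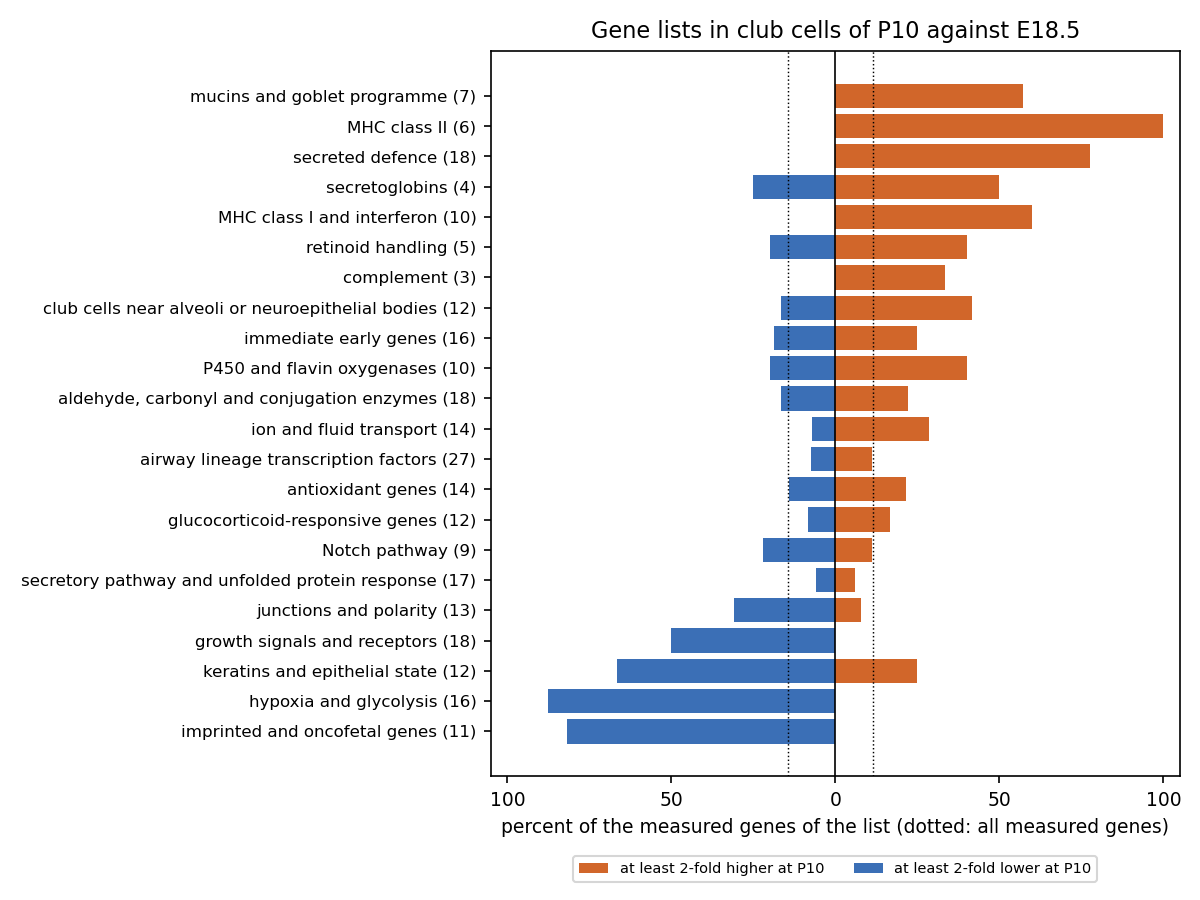
Percent of the measured genes of each list (number in brackets) that were at least 2-fold higher (right, orange) or lower (left, blue) in P10 than in E18.5 club cells; dotted lines give the percent of all measured genes. MHC class II and secreted defence lie to the right, and hypoxia and imprinted genes to the left.

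Club cells also varied among themselves. Thinned to 3000 UMIs, the most variable genes at E18.5 by variance over mean were Scgb1a1 (120), Sftpc (86.7), Scgb3a2 (51.7), Reg3g (16.5) and the lysozyme gene Lyz1 (13.3), against 1.06 for the median gene. At P10 they were Scgb1a1 (238), Scgb3a1 (189), Sftpc (92.5), Retnla (27.8) and Scgb3a2 (25.2). Over the cells of a library, Scgb1a1 and Scgb3a2 went together at E18.5 (Spearman 0.501, n = 189) and less so at P10 (0.315, n = 49). Scgb3a2 and Lypd2 had coefficients of 0.358 and 0.656, and Scgb3a2 and Scgb3a1 of 0.228 and 0.577. These cells share a library, and both genes of a pair share the total UMIs of the cell.

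Leiden clustering of the club cells alone gave 7 sub-clusters at E18.5 and 5 at P10, which are described by number and leading genes. At E18.5, sub-cluster 5 (24 cells) was led by Lyz1, Sftpc and Dlk1, had a median Sftpc of 5.94% and held 69.2% of the Dlk1 UMIs of club cells. Sub-cluster 7 (18 cells) had Rtkn2 and Akap5 among its leading genes and held 48.1% and 44.4% of their UMIs. Sub-cluster 3 (27 cells) was led by Reg3g through 2 cells with a UMI, 1 of which held 73 of its 97 UMIs in E18.5 club cells. Sub-cluster 6 (22 cells) had Cxcl10 and Calca among its leading genes, with a UMI in 2 and 1 of its cells. Calca, a peptide gene of neuroendocrine cells, had a UMI in 12 of 189 club cells, with 40.9% of its UMIs in 1 cell, while Chga was at 0.

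At P10, sub-cluster 2 (16 cells) was led by Scgb3a1 and Reg3g and held all 6 Muc5b cells, 99.8% of Scgb3a1 and 78.5% of H2-Aa. It also held 43.5% of Scgb1a1 and 45.0% of Cyp2f2. The 6 Muc5b cells alone held 21.7% of H2-Aa. Of the 16 cells, 4 had at least 2 UMIs of Ptprc, and Ccl5, among the leading genes, had a UMI in 2. Sub-cluster 1 (17 cells) had Saa3, an acute-phase protein gene, among its leading genes, with a UMI in 15 of 17 cells, and Nav3 in 2. Sub-cluster 3 (8 cells) had Slc7a8, C1qc and Apoe as leading genes, with a UMI in 1, 2 and 7 of its cells, and a median Scgb1a1 of 5.79% and Sftpc of 9.72%. Sub-cluster 4 (5 cells, median 6149 UMIs) was led by the cilium gene Ccdc153, and sub-cluster 5 (3 cells) by Stfa1, with the neutrophil gene S100a8 among its leading genes. C1qc and S100a8 are genes of macrophages and neutrophils, and 60.6% and 76.5% of their club cell UMIs lay in these 8 and 3 cells. A single cell held 19 of the 33 C1qc UMIs.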

How the data were processed

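The authors deposited raw UMI counts per gene and barcode for 2 libraries, which per the file headers are output of Cell Ranger 7.0.1, on mm10, per the submitters' processing notes, which also name Seurat 4.0.0. The handling of intronic reads is not stated. The deposited tables list 32285 genes and 0 reporter or recombinase transcripts. The rule removed 712 and 417 barcodes. The rule, gene lists and named genes were chosen with earlier results of these data known, and 348 of 351 listed genes matched. Counts were summed over cells and scaled to CPM; ratios carry exact conditional binomial intervals, and a count of 0 was set to 3 counts over the summed cells. No p-value was computed, since cells of 1 library are not replicates. The text names the 20 genes with the largest ratio to the other cells in both libraries (at least 50 CPM in club cells), the 15 with the largest ratio each way between time points (mean of at least 50 CPM), and the 10 most variable of each library, leaving out unnamed, sex-linked, haemoglobin, ribosomal and mitochondrial genes, plus list members. Some genes that meet the rule are not reported here. Other genes named were chosen after their values were seen. Spans came from GENCODE on GRCm38, and promoters from RefSeq. Sub-clusters came from Leiden clustering (resolution 0.8) on 10 neighbours in 10 principal components of 1000 variable genes. Ratios and intervals were tested on simulated sums with counting error only, the error that the intervals assume. The spread between cells was not simulated. Computations used matplotlib 3.10.9, scanpy 1.11.5, leidenalg 0.10.2, igraph 0.11.9, scipy 1.17.1, pandas 2.3.3, numpy 2.4.6 and Python 3.11.15. Alternative settings are given in the closing section.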

Additional observations from a re-analysis of the deposited data

Results flagged for a closer look

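Scnn1g, the gamma subunit of the epithelial sodium channel, lay below the other cells at E18.5 (log2 ratio of club to other cells -2.09) and above them at P10 (2.26). It stood at 23.9 CPM in club cells and 101 CPM in the other cells at E18.5, and at 19.1 and 4.00 CPM at P10. A UMI was found in 43 of 189 and 21 of 49 club cells, against 15.3% and 0.358% of leukocyte cells with median depths of 6762 and 4333 UMIs. After thinning to 3000 UMIs these shares were 5.95% and 8.33% of club cells, and 4.07% and 0.313% of leukocyte cells. The opposite directions were not tested, since each time point had 1 library.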

How the results depend on the processing

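The 20 genes named against the other cells were chosen for their large ratios, and Scgb1a1 and Cyp2f2 are in the rule, so that all 20 were more than 2-fold higher in both libraries under every alternative run except against ciliated cells is a description. So it is for the 30 named between time points, all past 2-fold under every one except without the Muc5b cells (28) and relative to AT2 cells (16). The club cell share at E18.5 was 1.04% with Scgb1a1 at 10%, 1.35% with 5 UMIs of Cyp2f2, 0.773% with no cilium gene and 1.34% without cells of Sftpc at 3%. At P10 it was 0.142% with no cilium gene, 0.128% without cells of Sftpc at 3% and 0.199% without cells with Ptprc, Pecam1 or Col1a2. Genes higher than the other cells numbered 398 (E18.5) and 388 (P10) with the median gene set to 0, 93 and 92 from 50 CPM, 1715 and 1747 without a filter, and 141 and 155 at 3-fold; genes lower numbered 565 and 256, 307 and 252, 3242 and 2580, and 375 and 161. Thinning gave 1438 lower at E18.5, and 587 higher and 1755 lower at P10. Against ciliated cells 1885 were lower at E18.5, and 91 higher and 1363 lower at P10. At E18.5 Scgb1a1 at 10% gave 1549 lower. At P10, genes lower numbered 467 with Scgb1a1 at 1%, 1340 with no cilium gene, 2101 without cells of Sftpc at 3% and 1588 without cells with Ptprc, Pecam1 or Col1a2; without secretoglobins in the totals 467 were higher and 241 lower. Between time points, 1389 were higher without secretoglobins, 1354 after thinning, 395 (371 lower) relative to AT2 cells, 273 (456 lower) from 50 CPM, 2673 (2251 lower) without a filter and 376 (335 lower) at 3-fold, and 682 were lower against genes of like span. Directions turned for Rassf9 against ciliated cells (log2 ratio -0.42 at E18.5 and -0.23 at P10), the retinoid list at P10 against ciliated cells (-0.24), and Reg3g without the Muc5b cells (-3.63). Relative to AT2 cells they turned for Scgb3a2 (0.55), Dlk1 (2.66), Msln (2.66), Ass1 (0.67), Akap5 (0.19) and the keratin list (0.71). The cause was not tested. Leaving out the Muc5b cells, leaving out the 2 cells highest in H2-Aa, and Scgb1a1 at 10% with Sftpc below 3%, were chosen after seeing the data. No paired analysis was possible because each time point had 1 library. With 49 club cells at P10, single cells weigh on every P10 value, and genes under about 10 CPM rest on few UMIs.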

Other observations

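Cells near the rule that were left out show how far the club cell genes reached. At least 2 UMIs of Cyp2f2 with Scgb1a1 below 3% and fewer than 4 cilium genes were found in 390 cells at E18.5 and 244 at P10, of which 26 and 12 had Scgb1a1 from 1 to 3%. Scgb1a1 at 3% or more with under 2 UMIs of Cyp2f2 was found in 18 and 4 cells. Of all kept UMIs of Muc5b and Bpifa1 at P10, club cells held 51.6% and 51.4%, and of Scgb3a1 64.5%. The summed ciliated cells stood at 109 CPM of Muc5b and 237 CPM of Bpifa1 at P10.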
